A study of Mus musculus with 4 samples.

Results

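The genes for apolipoproteins A-IV, A-V, C-I, C-II, C-III, C-IV, F, H and M (*Apoa4*, *Apoa5*, *Apoc1*, *Apoc2*, *Apoc3*, *Apoc4*, *Apof*, *Apoh* and *Apom*) were examined in mouse liver with and without *Usp21*, which encodes a deubiquitinating enzyme. They were taken by symbol from a list of apolipoproteins that leaves out those the study names, and all 9 were found among the 35739 genes of the deposited TPM table (an abundance corrected for transcript length and library size). RNA-seq had been done on livers of 2 WT mice, numbered 2 and 3, and of 2 *Usp21* KO mice, numbered 1 and 3, with 1 library per mouse, to find genes that depend on *Usp21*. The KO mice lack exons 3 and 4 of *Usp21* in all tissues, and WT and KO mice were littermates of 10 to 11 weeks, with a mixed background of B6 and the strain of the ES cells, kept on a normal diet. With a constitutive deletion, loss of *Usp21* in hepatocytes cannot be told apart from its loss elsewhere, and alleles of the ES cell strain close to *Usp21* travel with the deletion.

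Apolipoproteins are the protein coat of the lipoprotein particles that carry triglyceride and cholesterol through blood. Most of them are made by hepatocytes, and some are also made by the small intestine. The small exchangeable ones move between particles and control what happens to the lipid: apolipoprotein C-II activates lipoprotein lipase, C-I and C-III slow lipolysis and the uptake of remnants, and A-V promotes lipolysis. Apolipoprotein M carries sphingosine-1-phosphate on high-density lipoprotein, F regulates the exchange of cholesteryl esters, and H, also called beta-2-glycoprotein I, binds anionic phospholipids. The C genes and the A-IV and A-V genes stand in clusters with *Apoa1* or *Apoe*, which encode the main proteins of high-density lipoprotein and of remnant particles.

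The level of *Usp21* was 4.07 and 6.29 TPM in WT livers, against 1.64 and 2.93 TPM in KO livers. A gene-level value includes exons outside the deletion, so it does not check the deleted exons themselves. The 9 genes together took 22439 and 20785 TPM in WT livers, against 22652 and 19121 TPM in KO livers, or between 1.92% and 2.27% of each library. TPM holds no read depth, so the counting error behind these levels is unknown. In the second deposited table, a count-based signal, 4 of the 9 genes are listed at 0 in every library. The other 5 reach at most 2 reads in any library, which is under the floor of 3 reads, so all levels below are TPM. The signals disagree for *Apoc1*, which is at 12118 to 14458 TPM but at 1 or 2 reads, in libraries of 102898 to 148164 recovered reads. These counts therefore cannot be taken as the reads behind the TPM, and why they are low was not tested. The SD over genes of the log2 difference between libraries was 0.56 for the WT pair, 0.58 for the KO pair and 0.60 to 0.65 for pairs of unlike genotype. In bulk tissue, fewer cells of a type and less RNA per cell cannot be told apart.

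None of the 9 genes passed the test between genotypes, and none differed by 2-fold. Each was tested with limma on log2(TPM + 1) among the 9581 genes whose mean reached 1 TPM, and a call was an adjusted p under 0.05. By that rule 0 of 9 were called, where 0.0835% of all tested genes were, and 0 of 9 differed at least 2-fold, where 3.68% did. Before adjustment 1 of 9, *Apom*, had a p under 0.05, where 10.5% of all tested genes had one and 2.04% had one with a lower level in KO. For 3 of 9 genes (*Apoc3*, *Apoc4* and *Apom*) both KO libraries lay below both WT libraries, for 0 both lay above, and for 6 the groups overlapped. Over all tested genes the groups failed to overlap in 45.3%, with KO lower in 10.9%, and among the 822 genes whose mean reached 100 TPM, a level that 8 of the 9 exceed, KO was lower in 17.3%. The median log2 fold change (KO minus WT) was -0.19 for the 9 genes, 0.15 for all tested genes and 0.04 for the genes of at least 100 TPM. The median of the 9 rested on single libraries, at -0.00045 without KO replicate 3 and -0.02 without WT replicate 2.

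**Figure D1:**
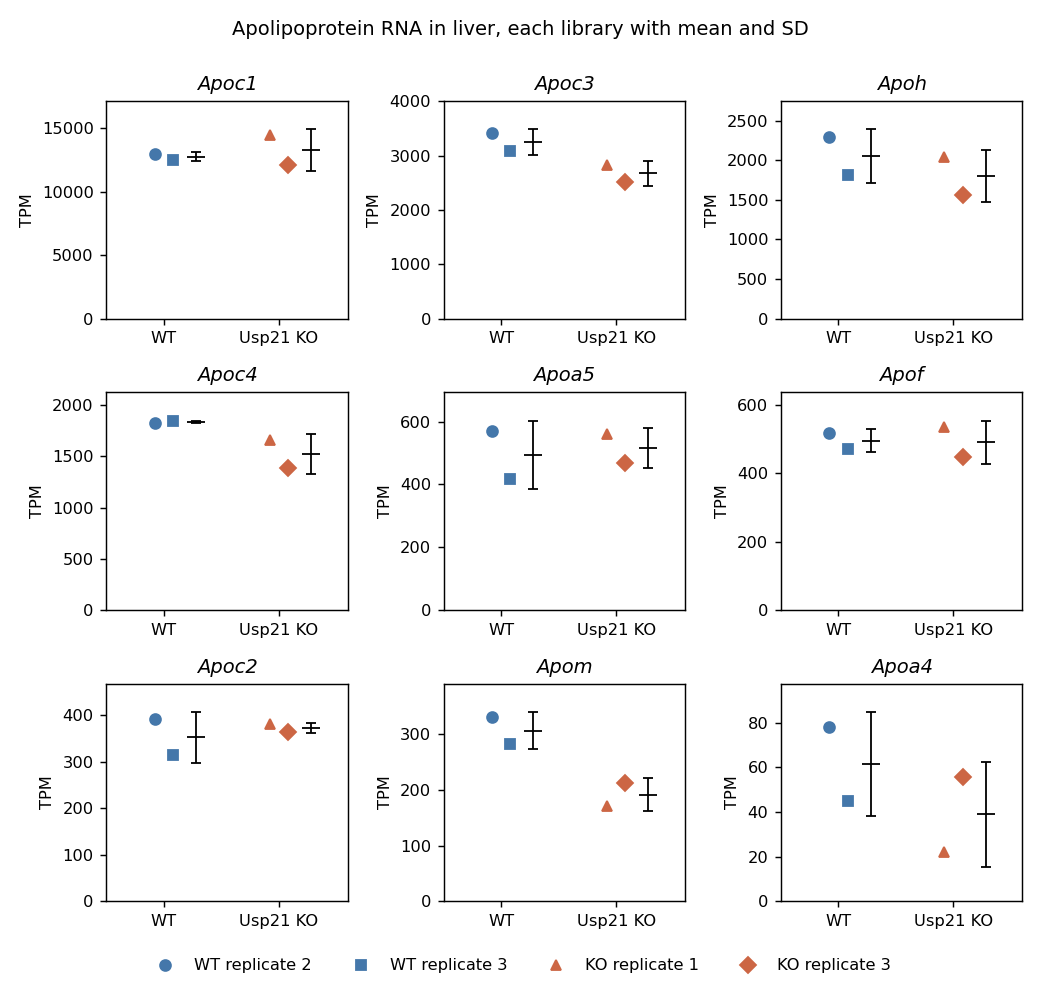
Level of each of the 9 genes in TPM (vertical axes, each starting at 0) in WT and *Usp21* KO liver, with 1 symbol per library and a bar for the mean and SD of the 2 libraries of each genotype. Both KO symbols lie below both WT symbols for *Apoc3*, *Apoc4* and *Apom*, and the groups overlap for the other 6 genes.

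*Apom* stood out from the other 8 by the size of its difference against its spread. Its level was 330 and 283 TPM in WT livers, against 171 and 213 TPM in KO livers. Each KO library was below each WT library, and the gap between the genotypes was wider than the gap within either. The mean was 306 ± 33.5 TPM in WT and 192 ± 29.7 TPM in KO (SD, n = 2 each), a ratio of 0.626. KO minus WT on the log2 scale was -0.68 (SE 0.19, 95% interval -1.16 to -0.20), which spans a fold of 0.448 to 0.872. The limma p was 0.0141 before and 0.464 after Benjamini-Hochberg adjustment, so *Apom* did not pass the call. Its log2 fold change stayed negative with each library left out (-0.84 to -0.52). The unadjusted p rose to 0.0872 when WT replicate 2 was left out, to 0.0653 when KO replicate 1 was, and to 0.0724 with the variance of *Apom* alone.

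*Apom* lies on chromosome 17 (GRCm38, 35128997 to 35132050, reverse strand), and its transcript has 6 exons. In a promoter window from RefSeq (GRCm38.p6, 250 bases before to 50 after the annotated start) the letters GGGTCA, one spelling of the core hexamer that nuclear receptors bind, occur at 2 places. Positions are counted from the RefSeq start, which lies within the longer transcript of GENCODE. By the GENCODE start, both places with GGGTCA lie downstream, inside the span of that transcript, and not before the gene. This spelling was looked for after the sequences had been seen. The stretches are shown because *Apom* had the only unadjusted p under 0.05 among the 9 genes, with the match in capitals, 5′ to 3′ on the strand of the gene.
*Apom*, -156 to -151 (chr17:35131940-35131969): ctcagagtcactGGGTCAtgcccgggtata
*Apom*, -32 to -27 (chr17:35131816-35131845): tagcaggttaaaGGGTCAagggtcgaggcg
On either strand, 13.7% of all 32851 promoter windows hold these letters, and a match of letters does not show that a factor binds.

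The other gene centred on high-density lipoprotein exchange, *Apof*, was level between genotypes within its spread. *Apof* (chromosome 10, 128268671 to 128270153, forward strand) was at 518 and 470 TPM in WT livers, against 535 and 446 TPM in KO livers. The KO libraries were the highest and the lowest of the 4. Its log2 fold change was -0.01 (SE 0.18, 95% interval -0.47 to 0.44, adjusted p = 0.982), so the fold could be as low as 0.721 or as high as 1.36. Its sign turned when WT replicate 2 or KO replicate 3 was left out (0.06 and 0.12).

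*Apoh*, the phospholipid-binding glycoprotein gene (chromosome 11, 108343354 to 108414396, forward strand), was at 2292 and 1808 TPM in WT livers, against 2035 and 1565 TPM in KO livers. The lowest level was in KO replicate 3 and the highest in WT replicate 2, and the groups overlapped. The log2 fold change was -0.19 (SE 0.24, 95% interval -0.79 to 0.41, adjusted p = 0.776). Without KO replicate 3 it was -0.00045 and without WT replicate 2 it was -0.02, so the lower mean in KO rested on those 2 libraries.

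Among the inhibitors of lipolysis, *Apoc3* had lower values in KO and *Apoc1* did not. *Apoc3* (chromosome 9, 46232933 to 46235636, reverse strand), a drug target for high plasma triglyceride, was at 3416 and 3086 TPM in WT livers, against 2832 and 2508 TPM in KO livers. Both KO libraries lay below both WT libraries, and the step from the lowest WT to the highest KO library was smaller than the step within either genotype. KO minus WT on the log2 scale was -0.28 (SE 0.21, 95% interval -0.80 to 0.23, adjusted p = 0.619), and it ran from -0.37 to -0.20 with each library left out.

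*Apoc1*, the most abundant of the 9 genes and a cofactor and inhibitor in several steps of lipoprotein metabolism, lies on chromosome 7 (19689481 to 19692660, reverse strand). Its level was 13013 and 12517 TPM in WT livers, against 14458 and 12118 TPM in KO livers, and it ranked from 13th to 17th among all genes of a library. The KO libraries again held both the highest and the lowest value. The log2 fold change was 0.05 (SE 0.26, 95% interval -0.59 to 0.70, adjusted p = 0.949), and it was -0.08 with libraries scaled to an equal upper quartile and -0.12 with TMM factors (trimmed mean of M-values).

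*Apoc4*, whose product is a minor component of very-low-density lipoprotein, resembled *Apoc3*. It was at 1830 and 1845 TPM in WT livers, against 1658 and 1382 TPM in KO livers (chromosome 7, 19678083 to 19681479, reverse strand). Both KO libraries were below the WT libraries, and the WT libraries were within a factor of 1.01 of each other while the KO libraries were 1.20-fold apart. KO minus WT on the log2 scale was -0.28 (SE 0.20, 95% interval -0.77 to 0.21, adjusted p = 0.611), and it ran from -0.41 to -0.15 with each library left out. With TMM factors, the unadjusted p was 0.0419 for *Apoc3* and 0.0349 for *Apoc4*, with an adjusted p of 0.533 for each.

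The activators of lipolysis, *Apoc2* and *Apoa5*, had overlapping groups. *Apoc2* (chromosome 7, 19671579 to 19677941, reverse strand), the cofactor that lipoprotein lipase needs, was at 391 and 314 TPM in WT livers, against 380.3 and 364 TPM in KO livers. WT replicate 3 was the lowest library and the KO values lay between the WT values. The log2 fold change was 0.09 (SE 0.18, 95% interval -0.37 to 0.55, adjusted p = 0.870), and it was -0.05 with upper quartile scaling, -0.08 with TMM factors and -0.07 without WT replicate 3.

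The value of *Apoc2* also depends on how reads are assigned to an overlapping gene. Of the 31-base stretches in its transcripts, 78.8% also occur in a read-through gene, *Apoc2l* (*Gm44805* in GENCODE M21), which runs from 19671584 to 19681423 over *Apoc2* and *Apoc4*. *Apoc2l* was at 38.9 and 29.6 TPM in WT livers, against 20.0 and 42.5 TPM in KO livers. Summed with it, *Apoc2* had a log2 fold change of 0.07 and *Apoc4* of -0.28, close to their own values. Of the stretches in *Apoc4* transcripts, 12.4% occur in other genes, 3.63% in *Apoc2l* itself, and none of the stretches in the other 7 genes do.

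*Apoa5*, which lies at the far end of the cluster on chromosome 9 (46268633 to 46271919, forward strand), was at 572 and 417 TPM in WT livers, against 560.5 and 470 TPM in KO livers. Both KO values lay between the WT values. KO minus WT on the log2 scale was 0.07 (SE 0.22, 95% interval -0.49 to 0.63, adjusted p = 0.916), and its sign turned with upper quartile scaling (-0.06), with TMM factors (-0.10) and without WT replicate 3 (-0.16) or KO replicate 1 (-0.06). RefSeq gives *Apoa5* more than 1 start, and positions here are counted from the one that comes first. Its window is shown because it is the one of the 6 genes with an entry that holds both an E-box (CACGTG) and a TATA box (TATAAA), with the matches in capitals, 5′ to 3′ on the forward strand of GRCm38.p6.
*Apoa5* E-box, -82 to -77 (chr9:46268514-46268543): tctttgaccctcCACGTGgtgtttgctcag
*Apoa5* TATA box, -31 to -26 (chr9:46268565-46268594): tggcgcctagagTATAAAgtaagagtgtct
Of all windows, 7.15% hold the E-box and 13.6% the TATA box on either strand, and GGGTCA occurs on each strand of the *Apoa5* window. The usual spelling AGGTCA was found in the windows of *Apoc2*, *Apoc4* and *Apoh* (16.3% of all windows), and CCAAT in that of *Apoc4* (37.4% of all windows). No window of the 6 genes holds the HNF4A motif CAAAGTCCA (0.47% of all windows) or the D-box TTATGNAA (3.38% of all windows).

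*Apoa4*, an apolipoprotein best known from the intestine and induced in liver by lipid load and fasting, was the least abundant and the most variable of the 9 genes. It lies at 46240696 to 46243459 on the forward strand of chromosome 9 and was at 77.9 and 44.9 TPM in WT livers, against 22.3 and 55.5 TPM in KO livers. The lowest level was in KO replicate 1, and KO replicate 3 lay between the WT libraries. The spread was 1.73-fold in WT and 2.49-fold in KO. The log2 fold change was -0.73 (SE 0.47, 95% interval -1.91 to 0.45, adjusted p = 0.582), the largest of the 9 in size and the least precise. Without KO replicate 1 it was -0.09, without WT replicate 2 it was -0.34, without WT replicate 3 it was -1.12 and without KO replicate 3 it was -1.37, with an unadjusted p of 0.0301 and an adjusted p of 0.403 in the last case. Of the 7 enterocyte markers, 5 (Cdx1, Cdx2, Sis, Lct and Alpi) were at 0 in all libraries. A sixth, *Fabp2*, the intestinal fatty acid binding protein gene, was at 21.4 and 39.8 TPM in WT and at 48.3 and 33.9 TPM in KO with overlapping groups, and the list summed to between 21.4 and 48.4 TPM in the 4 libraries. The part of intestinal RNA in the level of *Apoa4* was not tested.

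**Figure D2:**
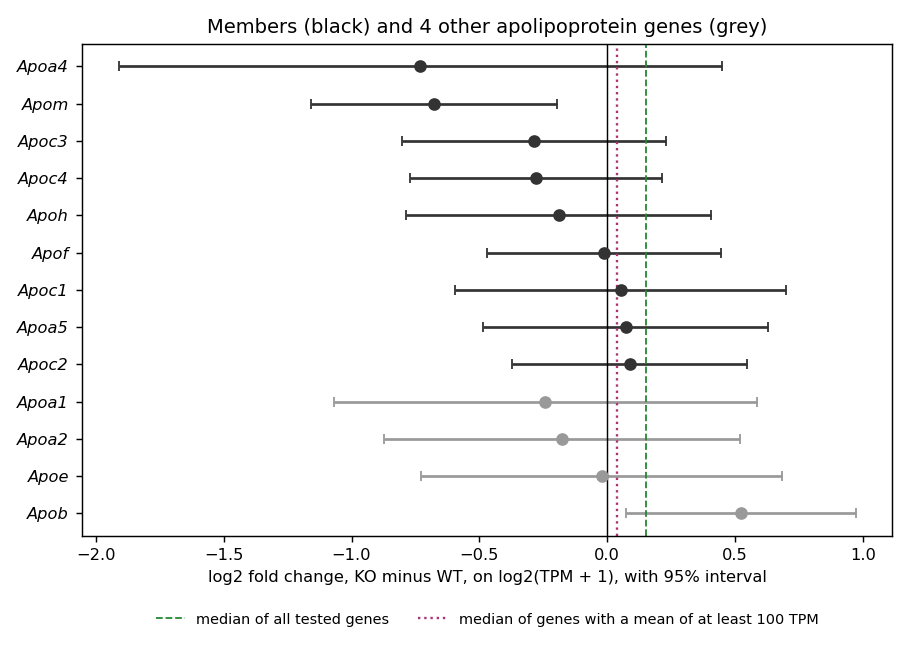
Horizontal axis, log2 fold change (KO minus WT, on log2(TPM + 1)) with its 95% interval from limma for the 9 genes (black) and 4 other apolipoprotein genes (grey), with dashed and dotted lines at the medians of all tested genes (0.15) and of genes whose mean reached 100 TPM (0.04). Of the 9, the interval of *Apom* alone lies wholly below 0 (-1.16 to -0.20), and that of *Apoa4* is the widest (-1.91 to 0.45).

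**Figure D3:**
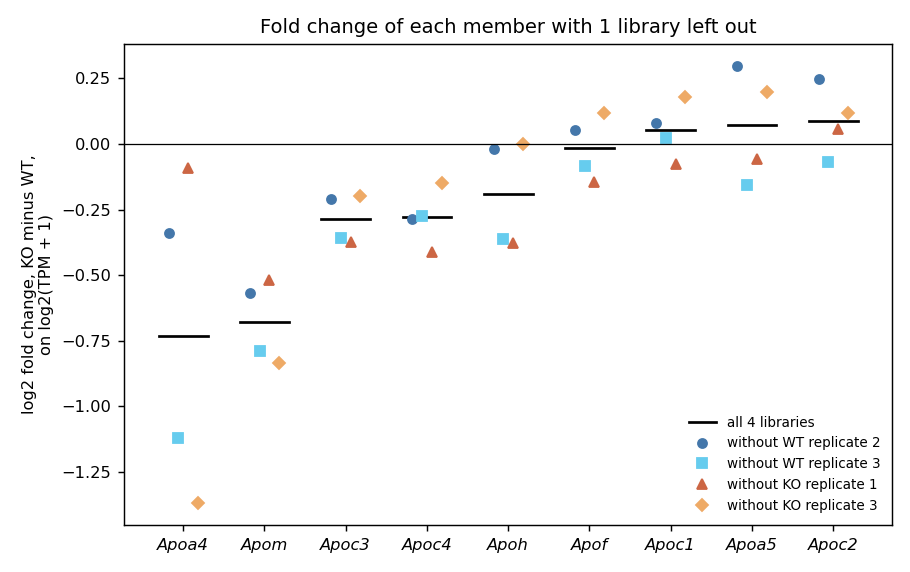
Log2 fold change (vertical axis, KO minus WT, on log2(TPM + 1)) of each of the 9 genes with all 4 libraries (line) and with each library left out (symbols). *Apoa4* moves from -1.37 to -0.09, *Apom* stays between -0.84 and -0.52, and *Apoa5*, *Apoc1*, *Apoc2* and *Apof* have values on both sides of 0.

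The order of the 9 mean levels was the same in both genotypes, with *Apoc1* first, followed by *Apoc3*, then *Apoh* and *Apoc4*, then *Apoa5* and *Apof*, then *Apoc2*, *Apom* and *Apoa4*. On the length-corrected TPM scale, *Apoh* and *Apoc4* overlapped in each genotype, and so did *Apoa5* and *Apof*. *Apoc2* and *Apom* overlapped in WT (391 and 314 against 330 and 283 TPM) and were apart in KO (380.3 and 364 against 171 and 213 TPM). By the root mean square (RMS) difference of their centred log2(TPM + 1) values over the 4 libraries, the most alike were *Apoc1* and *Apof* (0.0445), *Apoc3* and *Apoc4* (0.0641), and *Apoa5* and *Apoc2* (0.0840). Among 814 other genes of at least 100 TPM, those most like the mean profile of the 9 were *Ap2m1*, a clathrin adaptor subunit (RMS 0.0302), *Aldh7a1*, an aldehyde dehydrogenase (0.0327), and *Lcat*, the enzyme that esterifies cholesterol on high-density lipoprotein (0.0362). The mean profile is not one that all 9 genes share, as *Apoa4* lay at an RMS of 0.394 (*Apom*) to 0.716 (*Apoc1*) from the others. These likenesses describe 4 libraries that share their scaling.

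A ratio between genes of the same library does not depend on how the libraries were scaled, so each gene of a cluster was also set against its well-known neighbour. Relative to *Apoe*, *Apoc4* was at 6.99% and 7.93% in WT and 6.58% and 5.89% in KO. Both KO ratios were below both WT ratios, with a log2 difference of -0.26. *Apoc2* was at 1.49% and 1.35% of *Apoe* in WT and 1.51% and 1.55% in KO, both above WT, with a log2 difference of 0.11. Without WT replicate 3 these differences were -0.17 for *Apoc4* and 0.038 for *Apoc2*, without KO replicate 3 that of *Apoc4* was -0.18, and without WT replicate 2 that of *Apoc2* was 0.18. *Apoc1* was at 49.7% and 53.8% of *Apoe* in WT and 57.4% and 51.7% in KO, and these overlapped. In the other cluster, *Apoc3* was at 27.1% and 28.1% of *Apoa1* in WT and 22.0% and 32.5% in KO. The KO libraries fell on either side of WT, so the separation of *Apoc3* in TPM was not seen in its ratio to *Apoa1*, which itself was at 12609 and 10990 TPM in WT livers, against 12865 and 7707 TPM in KO livers. *Apoa4* was at 0.618% and 0.409% of *Apoa1* in WT and 0.173% and 0.720% in KO, and *Apoa5* at 4.53% and 3.80% in WT and 4.36% and 6.10% in KO, both with overlapping groups. These ratios were not tested, because an exact permutation test of 2 against 2 libraries cannot go below 1 in 3.

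**Figure D4:**
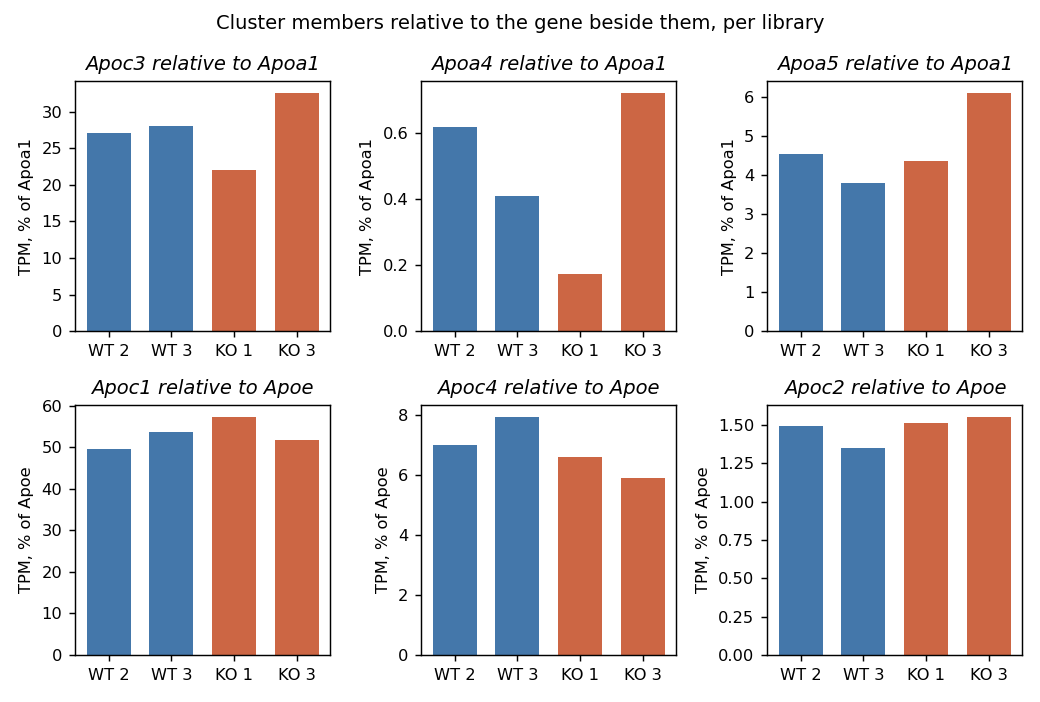
TPM of 6 genes as a percent of the TPM of *Apoa1* (top row) or *Apoe* (bottom row) in the same library, for each WT (blue) and *Usp21* KO (orange) library. *Apoc4* relative to *Apoe* is lower in both KO libraries (6.58% and 5.89%) than in WT (6.99% and 7.93%), whereas *Apoc3* relative to *Apoa1* lies on either side of WT in KO (22.0% and 32.5%).

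Shares of a common apolipoprotein RNA pool were also computed. Of the summed TPM of the 9 genes with *Apoa1*, *Apoa2*, *Apob* and *Apoe*, the 9 made up 27.8% and 29.3% in WT and 29.1% and 29.4% in KO. *Apoc1* alone made up 16.1% and 17.6% in WT and 18.6% and 18.6% in KO. Within the pool *Apoc3* (4.24% and 4.35% against 3.64% and 3.85%), *Apoc4* (2.27% and 2.60% against 2.13% and 2.12%) and *Apom* (0.409% and 0.398% against 0.219% and 0.327%) had lower shares in both KO libraries than in WT. The shares of *Apoa5*, *Apoc1*, *Apoc2* and *Apof* were higher in both KO libraries, though in TPM the groups of each of these genes overlapped. The shares of *Apoa4* and *Apoh* overlapped. These shares were not tested either, and they sum to 100, so they are not independent of each other.

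Of 8 other apolipoprotein genes tested, 0 passed the call. *Apob*, the structural protein of very-low-density lipoprotein, was at 554 and 622 TPM in WT livers, against 896 and 794 TPM in KO livers, a log2 fold change of 0.52 (adjusted p = 0.464), opposite in sign to *Apom*. The groups of *Apoo* were also apart, with a log2 fold change of 0.48, and those of *Apoa1* (-0.24), *Apoa2* (-0.18), *Apon* (-0.10), *Apoe* (-0.02), *Clu* (0.06) and *Apool* (0.26) overlapped. Apod was at 0 in all libraries.

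Genes that act on the same particles were counted in lists, and 0 genes of any list passed the call. Of 11 genes of lipoprotein assembly and secretion, 1 was at least 2-fold higher, *Plin2*, a lipid droplet coat protein (log2 fold change 1.09), followed in size by *Tm6sf2* (-0.46) and *Tmem41b* (-0.41). Of 10 genes of plasma lipases, their cofactors and remodelling, 1 was at least 2-fold higher, *Lpl*, the lipase that *Apoc2* and *Apoc3* act on, at 4.73 and 4.60 TPM in WT livers, against 30.9 and 9.93 TPM in KO livers (1.72, adjusted p = 0.464). Next were *Angptl4*, an inhibitor of that lipase (0.80), and *Gpihbp1*, its endothelial anchor (-0.55). The groups of *Angptl4* overlapped, at 39.8 and 32.7 TPM in WT and at 37.3 and 108 TPM in KO, where KO replicate 3 alone was high. Among the receptor and efflux genes, the values of *Scarb1*, a receptor for high-density lipoprotein (0.62), and of *Abca1*, which passes cholesterol to lipid-poor apolipoproteins (0.53), were higher in both KO libraries than in WT.

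Of 28 transcription factors tested that are known at apolipoprotein genes, 4 had an unadjusted p under 0.05, where 10.5% of all tested genes had one. Among them 1 was at least 2-fold higher and 1 at least 2-fold lower. Both KO libraries lay above WT for 8 of the 28 and below for 6, and the groups overlapped for 14. Over all tested genes, 34.4% lay above and 10.9% below. The median log2 fold change of the 28 was 0.07, against 0.15 for all tested genes. *Onecut1* was 1.35 higher on the log2 scale from a low level (2.41 and 1.45 TPM in WT, 10.5 and 3.73 TPM in KO). *Srebf1*, which drives fatty acid synthesis, was at 58.1 and 64.3 TPM in WT livers, against 27.3 and 20.7 TPM in KO livers. Its log2 difference was -1.32 (limma adjusted p = 0.242). *Ppargc1a* was near the filter of 1 TPM, with a mean of 0.582 TPM for WT and 1.81 TPM for KO, a ratio of 3.11. Its log2 fold change of 0.80 is on log2(TPM + 1), where the added 1 shrinks changes at such low levels. *Hnf4a*, a nuclear receptor that acts at many liver promoters and is given here with its values although it lies outside the rule for naming, was at 112 and 105 TPM in WT livers, against 171 and 155 TPM in KO livers (a log2 difference of 0.58, adjusted p = 0.464). A part of these factors in the levels of the 9 genes was not tested.

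Genes beside the 9 were counted too. Of 53 protein-coding genes within 100 kb of one of them, 33 were tested, 0 passed the call and 1 differed at least 2-fold, *Stat2*, which lies 406 bases from *Apof* (log2 fold change 1.06, adjusted p = 0.475). Both KO libraries lay above WT for 11 of the 33, where 34.4% of all tested genes did, below for 2, and the groups overlapped for 20, so the neighbours were close to the background. Beside *Apom*, *D17H6S53E* at 142 bases had a log2 fold change of 0.63 and *Bag6* at 3128 bases of -0.03, both with overlapping groups. Of the 11 genes tested around *Apom*, both KO libraries lay above WT for 5, among them *Gpank1* at 4183 bases (0.82, adjusted p = 0.464), and below WT for 1, *Abhd16a* at 26010 bases (-0.44, adjusted p = 0.491), these examples having been chosen after their values were seen.

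All 8 hepatocyte markers were tested and summed to between 57057 and 68537 TPM in WT and between 49766 and 57223 TPM in KO, ranges that overlap by a small margin. Most of each sum was *Alb* (43181 and 32024 TPM in WT, 31006 and 27475 TPM in KO). Of the 8, both KO libraries lay above WT for 2 and below for 2, and the groups overlapped for 4. Over all tested genes, 34.4% lay above and 10.9% below. The sums of Kupffer cells (97.3 to 110 against 54.9 to 143 TPM) and of red cells (892 to 911 against 719 to 901 TPM) overlapped as well. The sum of 6 cholangiocyte markers was higher in KO (24.5 to 38.0 TPM) than in WT (14.6 to 15.9 TPM), as were those of 7 stellate cell markers (65.1 to 95.7 against 56.8 to 60.5 TPM). The 7 sinusoidal endothelial markers summed to 41.9 to 50.8 TPM in WT and 47.2 to 62.5 TPM in KO. No adipocyte or lymphocyte marker reached a mean of 1 TPM, with Retn, Plin1 and Lep at 0. The part of cell composition in the levels of *Apom*, *Apoc3* and *Apoc4* was not tested.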

How the data were processed

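The authors quantified liver RNA-seq reads with salmon on a transcriptome named mm10 and deposited TPM per Ensembl gene. They also deposited a signal table of HTSeq counts scaled to TMM-normalized CPM, in which 100% of the values were whole reads within a tolerance of 0.02 reads. Versions, annotation release and strand setting are not given in the sources used here. Log2 copies of both tables were not used. TPM keeps no depth.

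The members and gene lists were chosen with earlier results of these data known. Genes whose mean reached 1 TPM were tested on log2(TPM + 1) with limma 3.58.1 (R 4.3.3; lmFit, eBayes with trend, two-sided, prior degrees of freedom 3.62) with Benjamini-Hochberg adjustment over 9581 genes. Fold changes are on that scale. P-values rest on the spread between 2 mice per group, moderated by variances shared across genes of similar level. The 9 members were named. From the other apolipoproteins, those of at least 1 TPM were named. From each list, genes at least 2-fold apart with non-overlapping groups were named, or the largest changes up to 3 where fewer passed. Marker lists are given as sums, with some single markers named. A gene of the receptor list is not reported here. Alternatives tried were a pseudocount of 0.1 or 5, no filter or at least 5 TPM, upper quartile and TMM scaling, unmoderated variances, the CPM table, and each library left out. Sums with *Apoc2l* were added after seeing the data. On the recovered reads, edgeR 4.0.16 called 12 of 5146 genes and DESeq2 1.42.0 called 1, none of them a member. There 4 members were at 0 and the other 5 reached at most 2 reads, too few to call. The outcome for the members was thus fixed in advance. Scripts were tested on simulated data. Loci come from GENCODE M21 and promoter windows from RefSeq (GRCm38.p6), where 6 of the 9 symbols matched, and *Apoc1*, *Apoc3* and *Apof* did not.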

Additional observations from a re-analysis of the deposited data

How the results depend on the processing

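No member passed the adjusted threshold under any alternative fit to TPM with all libraries kept. The CPM table, with at most 2 reads per member, gave no fold change and could not test the members. No paired analysis was possible because no pairing of WT and KO mice is given. Filters and variances cannot move a fold change, and the pseudocounts turned no sign of a member. With upper quartile scaling *Apoa5* was -0.062, *Apoc1* -0.082 and *Apoc2* -0.045, and with TMM factors they were -0.096, -0.12 and -0.079. These scalings moved the median of all tested genes from 0.15 to 0.04 and 0.01, and the median of the members from -0.19 to -0.32 and -0.36. A scaling moves all genes by about the same amount, so it does not bear on their difference. With each library left out, the median of the members ran from -0.27 to -0.00045, the latter without KO replicate 3, and was -0.02 without WT replicate 2. The number at least 2-fold apart ran from 0 to 1 (*Apoa4* without WT replicate 3 or KO replicate 3). *Apoa5* ran from -0.16 to 0.30, *Apoc1* from -0.075 to 0.18, *Apoc2* from -0.070 to 0.25 and *Apof* from -0.15 to 0.12. The log2 ratio difference ran from -0.33 to 0.24 for *Apoc3* to *Apoa1*, from -1.50 to 0.52 for *Apoa4* to *Apoa1* and from -0.0012 to 0.15 for *Apoc1* to *Apoe*, with the sign turned without KO replicate 1, against -0.04, -0.49 and 0.07 with all libraries. It ran from -0.35 to -0.17 for *Apoc4* to *Apoe*, from 0.038 to 0.18 for *Apoc2* to *Apoe* and from 0.07 to 0.56 for *Apoa5* to *Apoa1*.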
